A study of Mus musculus with 6 samples.

Results

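Chemokine receptors are cell surface proteins with a heptahelical fold that read gradients of small secreted proteins, the chemokines, and steer the movement of leukocytes and stromal cells. The conventional receptors signal through inhibitory G proteins and beta-arrestins. The atypical receptors bind chemokines without G protein signalling and mostly remove them from the surroundings. In exocrine glands such as the lacrimal gland they are known for recruiting macrophages, dendritic cells and lymphocytes during inflammation, and Cxcr4 and Ackr3 are also used by stromal and epithelial cells. The genes described here are 9 of the 22180 named genes of the series: Ccr1, Ccr2, Ccr3, Ccr7, Cx3cr1, Cxcr2 and Cxcr4, which encode conventional receptors, and Ackr2 and Ackr3, which encode atypical ones. They were taken by symbol from a list chosen with earlier results of these data known. Each of the 9 had exactly 1 probe set carrying its symbol alone, so no choice between probe sets was needed.

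The RNA came from cultured lacrimal gland myoepithelial cells, which are contractile and lie around the acini of the gland. Cells of 3 samples came from TSP1 null mice, which lack thrombospondin-1 (gene Thbs1) and serve in this series as the dry eye disease model, and cells of 3 samples came from wild type C57BL/6J mice. All mice were female, cells of exorbital glands were kept in culture with serum for about 2 to 3 weeks, and no sample had a treatment. The ages, the genetic background of the null mice, the null allele and the number of animals behind a culture are not stated in the labels. The titles call the 3 samples of a group biological replicates. Whether a replicate is a separate culture or a separate mouse is not spelled out, and the spread behind every p-value is that among these samples. The comparison asks how expression differs between the disease model and health.

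All values are RMA signals on the log2 scale from Affymetrix Mouse Gene 2.0 ST arrays, with array medians between 5.25 and 5.32. A difference of 1 is a doubling of signal, and differences of dim probe sets are compressed by background. Probe sets differ in response, so levels say how bright a probe set is and do not rank the genes by expression. Thbs1 read 12.73 to 13.03 on the null arrays and 13.51 to 13.75 on the wild-type arrays, still bright in the null group, and where its probes lie relative to the disrupted part is not given, so it is a weak check of the labels. Among markers of the labelled cell type, Acta2 (smooth muscle actin) had a mean of 13.95 over the 6 arrays and Trp63, a basal epithelial transcription factor, 4.69, below the array median. The mean of 9 myoepithelial markers was higher in the null group without overlap, at 7.59 to 8.04 against 7.42 to 7.51. Differences were positive for 7 of the 9, while 44.9% of all genes had a difference below 0. The largest were those of the basal keratins Krt14 (0.89, SE 0.20, limma adjusted p = 0.290) and Krt17 (0.82, SE 0.23, limma adjusted p = 0.337). Acta2 (-0.05, SE 0.10) and Oxtr (-0.05, SE 0.18) were the 2 negative ones, so the markers did not move as 1. The part of this marker mean in the receptor results was not tested. Macrophage markers were bright: the mean of 20 genes ran from 7.42 to 9.78 in the null group and from 9.64 to 10.44 in the wild-type group, with genes from Lyz2 (lysozyme) at a mean of 12.27 to Cd163 at 4.20. The mean of 10 fibroblast markers lay between 9.34 and 9.94 in the null group and between 8.92 and 10.35 in the wild-type group. This mean was highest on the first wild-type array. Its members had 5 positive and 5 negative differences, from Dpep1 (1.45, SE 0.58) to Lum (-1.05, SE 0.99). Col1a1 (0.54, SE 0.15, limma adjusted p = 0.325) and Col1a2 (0.51, SE 0.11, limma adjusted p = 0.290) were higher in the null group without overlap. In such mixed RNA, fewer cells of a type and less RNA per cell cannot be told apart.

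Receptor signals were lower on average in the TSP1 null cultures for 8 of the 9 genes, with Ackr3 the exception, but none passed limma's test over all genes. The fitted difference, null minus wild type, had a median of -0.21 over the 9 receptors and 0.022 over all genes, of which 44.9% were below 0. Ccr3 differed by -1.09, Cx3cr1 by -0.85, Cxcr4 by -0.47 and Ackr3 by 0.57, and the other 5 by -0.24 to -0.05. With Benjamini-Hochberg adjustment 0 of the 9 receptors and 0% of the 22180 genes had an adjusted p under 0.05, and the smallest adjusted p of a receptor was 0.365, for Ccr3. At an unadjusted limma p under 0.05 there was 1 receptor, Ccr3, against 10.6% of all genes (4.27% lower and 6.28% higher in the null group). In an ordinary linear model for each gene, without limma's shared spread, Ccr3 lost this call (unadjusted p = 0.0718). The 1 receptor counted there was Ackr2 (unadjusted p = 0.0383), against 8.58% of all genes in that model. Groups were without overlap for 2 of the 9, Ccr3 and Ackr2, both lower in the null group, against 15.8% of all genes in either direction and 5.75% in that direction (10.1% in the other). The exact permutation test of each receptor, two-sided, gave 0.1 for these and more for the others, and 0.1 is the smallest that 3 arrays against 3 can give.

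These counts turned on single arrays. The number of receptors at an unadjusted limma p under 0.05 was 4 of 9 once the first wild-type array was left out, against 12.3% of all genes in that fit. It was 2 without the second null array (12.3% of all genes) and 0 without null array 1 (6.75%). With fewer arrays more genes are without overlap. Receptors without overlap numbered 6 without the first wild-type array, against 29.7% of all genes, and 4 without the second null array, against 30.5%. They numbered 0 after quantile normalization (16.5% of all genes) or centring of each array on its median (17.4%). The gaps in the deposited values were small, from 5.251 to 5.253 for Ccr3 and from 5.728 to 5.776 for Ackr2.

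**Figure D1:**
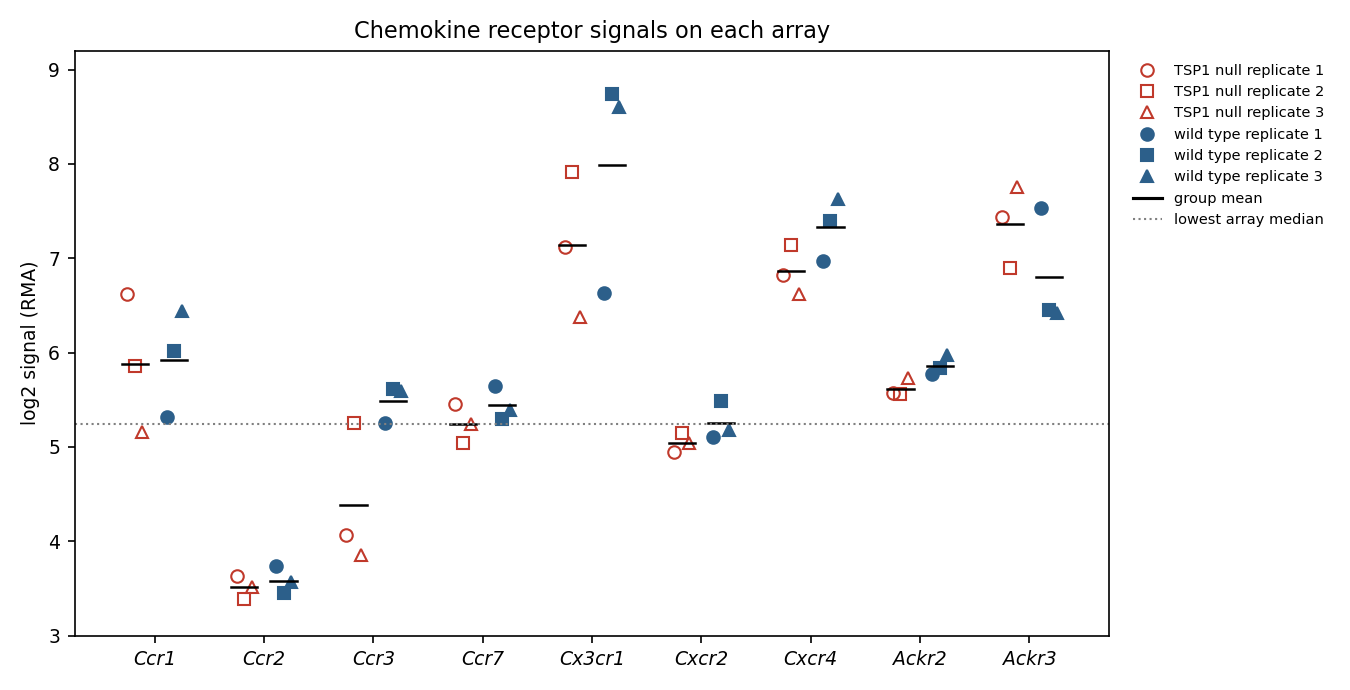
Log2 signal (y axis) of the 9 receptors (x axis) on each of the 6 arrays, with open red symbols for TSP1 null, filled blue symbols for wild type, a symbol shape per replicate and black bars at the group means; the dotted line is the lowest array median, 5.25. Cx3cr1 spreads over 2.37 units, with the first wild-type array (6.63) far below the other wild-type arrays, and Ackr3 shows the reverse order.

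The 4 receptors below are shown with the 250 bases before the RefSeq transcription start (build GRCm38.p6). Cx3cr1, Ccr3 and Cxcr4 had a like order of arrays and Ackr3 about the opposite one (Spearman rho of -0.77 with Ccr3). The order was not particular to these: Cxcr2, not printed, had a rho of 0.83 with Cx3cr1 and 0.89 with Ccr3 and with Cxcr4. Promoters of 8 of the 9 receptors were matched by symbol. Capitals mark matches on either strand to 7 motifs. The TATA box was searched as TATAAA and the GC box as GGGCGG. The core bound by ETS factors such as PU.1 was searched as GAGGAA, while the AP-1 site was searched as TGANTCA. A site of GATA factors was searched as AGATAA, and the core of hypoxia elements was searched as ACGTG or, counted separately, as GCGTG. Matches of different motifs did not overlap in these windows.
Cx3cr1, chr9:120068297-120068546, minus strand: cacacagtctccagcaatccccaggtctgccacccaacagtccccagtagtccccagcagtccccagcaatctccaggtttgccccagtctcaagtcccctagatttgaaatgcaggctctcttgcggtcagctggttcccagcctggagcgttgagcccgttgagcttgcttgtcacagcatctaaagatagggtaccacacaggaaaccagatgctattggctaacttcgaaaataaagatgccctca
Ccr3, chr9:124021721-124021970, plus strand: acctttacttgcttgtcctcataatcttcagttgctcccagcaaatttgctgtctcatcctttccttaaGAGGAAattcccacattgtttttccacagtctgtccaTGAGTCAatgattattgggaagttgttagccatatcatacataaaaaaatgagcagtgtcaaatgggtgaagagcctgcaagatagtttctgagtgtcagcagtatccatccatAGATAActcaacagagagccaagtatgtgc
Cxcr4, chr1:128592300-128592549, minus strand: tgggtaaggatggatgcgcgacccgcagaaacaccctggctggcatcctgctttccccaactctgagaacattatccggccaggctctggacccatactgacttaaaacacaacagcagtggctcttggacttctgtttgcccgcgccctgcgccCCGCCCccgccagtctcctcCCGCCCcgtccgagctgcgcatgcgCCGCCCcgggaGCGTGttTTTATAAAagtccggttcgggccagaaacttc
Ackr3, chr1:90203730-90203979, plus strand: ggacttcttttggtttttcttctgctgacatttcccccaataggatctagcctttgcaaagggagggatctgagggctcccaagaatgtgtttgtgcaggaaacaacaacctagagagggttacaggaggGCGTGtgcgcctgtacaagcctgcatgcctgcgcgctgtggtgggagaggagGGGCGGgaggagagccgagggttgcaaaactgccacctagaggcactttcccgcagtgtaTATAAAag

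Cxcr4 and Ackr3, whose signals ran against each other, both held a TATA box, a GC box and the hypoxia core with a leading G, and among the 8 receptors no other held a TATA or a GC box. The TATA matches began 32 and 30 bases before the start in Cxcr4 and 8 bases before it in Ackr3. Ccr1, not printed, also held that hypoxia core. Of 32851 promoter windows of this length 12.4% held the TATA box, 32.7% the GC box and 28.2% that hypoxia core. Ccr3 held the ETS core, the AP-1 site and the GATA site, which 23.3%, 6.75% and 9.99% of windows hold. Ccr1 and Cxcr2 also held the ETS core, and Ccr2 the GATA site. The Cx3cr1 window held none of the 7 motifs, and the hypoxia core with a leading A, found in 16.6% of windows, was in none of the 8. A match is a description of letters, and no match says only that they are not in this window.

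Cx3cr1 encodes the receptor for fractalkine (Cx3cl1) and is known from microglia, resident macrophages and patrolling monocytes. Probe set 17532268 read 7.12, 7.92 and 6.38 on the null arrays and 6.63, 8.75 and 8.60 on the wild-type arrays. The second and the third wild-type arrays stood highest, while the first lay lower than all arrays except the third null one, so the groups overlapped. Its difference was -0.85 (SE 0.60, n = 3 per group, 95% interval -2.24 to 0.54, limma adjusted p = 0.659), and the exact permutation p was 0.3, two-sided. The range of 2.37 over the 6 arrays, 5.15-fold, was the widest of the 9 receptors. Without the first wild-type array the difference was -1.53, and without the third null array -0.47.

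Ccr2, the receptor of inflammatory monocytes for Ccl2, was dim everywhere. Probe set 17523650 read 3.63, 3.39 and 3.51 on the null arrays and 3.73, 3.45 and 3.57 on the wild-type arrays, brighter than only 15.3% of all probe sets. Groups overlapped, and the difference of -0.07 (SE 0.12, interval -0.36 to 0.21) was within the spread. It was 0.0021 without the first wild-type array. At this signal a change of the gene may not have been detectable. Its ligand Ccl2 was bright, with 11.08, 10.41 and 10.86 in the null group against 10.42, 11.10 and 10.92.

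Ccr1 binds Ccl3, Ccl5 and other inflammatory chemokines on monocytes and neutrophils. Probe set 17532569 read 6.62, 5.86 and 5.16 on the null arrays and 5.32, 6.02 and 6.44 on the wild-type arrays. Both groups covered nearly the same range, and the difference was -0.05 (SE 0.40, interval -0.97 to 0.88). Its sign was not settled: it was 0.31 without the third null array, 0.21 without the third wild-type array and 0.0028 without the second. The interval is wide, so these arrays do not show that Ccr1 is alike in the groups.

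Ccr3 encodes the eotaxin receptor, best known from eosinophils, basophils and mast cells. Probe set 17523646 read 4.06, 5.25 and 3.86 on the null arrays and 5.25, 5.61 and 5.59 on the wild-type arrays. The first and the third null arrays stood more than a unit below every other array, and the second null array was level with the first wild-type array. Ccr3 differed by -1.09 (SE 0.34, n = 3 per group, interval -1.88 to -0.30), or 2.13-fold lower in the null group, with an unadjusted limma p of 0.013 and an adjusted p of 0.365. Without the second null array the difference was -1.52 and the limma adjusted p 0.0368, with 34 genes passing in all. Over the 6 fits that leave out 1 array the difference ran from -1.52 to -0.83.

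Markers of the cells best known for Ccr3 were dim, and their mean was level. The mean of 10 eosinophil and mast cell markers, among them Epx, Prg2 and Siglecf, ran from 4.00 to 4.04 in the null group and from 3.97 to 4.05 in the wild-type group. Of the 10, 0 had an unadjusted limma p under 0.05, against 10.6% of all genes. The brightest, the mast cell tryptase Tpsb2, had a mean of 4.73 and the dimmest, the mast cell protease Mcpt4, 2.76. Tpsb2 was higher in the null group without overlap, at 5.00, 4.69 and 4.75 against 4.61, 4.63 and 4.68. The Ccr3 ligand Ccl11 (eotaxin-1) read 6.90, 7.60 and 6.59 on the null arrays and 8.97, 6.29 and 6.94 on the wild-type arrays. It was highest on the first wild-type array, where the mean of the fibroblast markers was also highest. Another ligand, Ccl24, stayed between 4.38 and 4.85 on all 6 arrays.

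Cxcr4 is the signalling receptor for Cxcl12 and holds leukocytes and progenitor cells in tissue. Probe set 17226593 read 6.83, 7.14 and 6.62 on the null arrays and 6.97, 7.39 and 7.63 on the wild-type arrays. The second and the third wild-type arrays were highest, and the groups overlapped only where the second null array exceeded the first wild-type array. Cxcr4 differed by -0.47 (SE 0.20, interval -0.93 to 0.0016, limma adjusted p = 0.476), and the exact permutation p was 0.2, two-sided. It was -0.65 without the first wild-type array and -0.32 without the third wild-type array.

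Ackr3, formerly Cxcr7, encodes an atypical receptor that takes up Cxcl12 and Cxcl11 and is common on stromal and endothelial cells. Probe set 17215605 read 7.44, 6.90 and 7.76 on the null arrays and 7.53, 6.45 and 6.42 on the wild-type arrays. The second and the third wild-type arrays were lowest and the third null array highest, while the first wild-type array lay within the null range. Its difference of 0.57 (SE 0.34, interval -0.21 to 1.35, limma adjusted p = 0.596) was the only positive one of the 9. Without the first wild-type array it was 0.93, and without the third null array 0.37.

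The shared ligand Cxcl12 was bright, at 11.87, 12.26 and 11.91 on the null arrays and 12.30, 10.45 and 11.09 on the wild-type arrays. The second and the third wild-type arrays, low in Ackr3 and high in Cxcr4, were also lowest in Cxcl12. Its difference was 0.73 (SE 0.41, limma adjusted p = 0.578), and the groups overlapped through the first wild-type array. Cxcl11, the other Ackr3 ligand, was dim, between 4.33 and 4.70.

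Over the 6 arrays Cxcr4 and Ackr3 had a Pearson r of -0.96 (exact permutation p = 0.00417, adjusted p = 0.0667 over 36 receptor pairs) and a Spearman rho of -0.94 (exact permutation p = 0.0167, adjusted p = 0.171). Cx3cr1 and Ackr3 had an r of -0.99 (exact permutation p = 0.00278, adjusted p = 0.0667) and a rho of -0.94 (exact permutation p = 0.0167, adjusted p = 0.171). With the 2 arrays farthest from the median of the first-named receptor left out, r was -0.95 for Cxcr4 and Ackr3 and -0.99 for Cx3cr1 and Ackr3. After each group's mean was subtracted, r was -0.96 and -0.99, so both relations were also present within the groups, though 3 arrays a group are too few for a value in each. Cx3cr1 and Cxcr4 had an r of 0.92 (exact permutation p = 0.0139, adjusted p = 0.125) and a rho of 0.89 (exact permutation p = 0.0333, adjusted p = 0.171), and r was 0.88 with the farthest arrays left out. None of the 36 pairs passed adjustment, and 6 had an unadjusted exact permutation p of r under 0.05. Ccr2 and Ccr7 also had an r of 0.96 (exact permutation p = 0.00556, adjusted p = 0.0667) and a rho of 0.94 (exact permutation p = 0.0167, adjusted p = 0.171), at ranges of only 0.34 and 0.60, and r was 0.85 with the farthest arrays left out.

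Ackr2 encodes an atypical receptor that clears inflammatory CC chemokines and is known from lymphatic endothelium. Probe set 17523371 read 5.57, 5.56 and 5.73 on the null arrays and 5.78, 5.83 and 5.97 on the wild-type arrays. Every null array was below every wild-type array, by a gap smaller than the spread within either group. The difference was -0.24 (SE 0.11, interval -0.50 to 0.019, limma adjusted p = 0.507). Of the lymphatic genes in the endothelial list, Lyve1 had a mean of 4.69 and Prox1 of 4.88 over the 6 arrays, while Flt4, at 5.61, was above the array median. The mean of the 10 endothelial markers lay between 5.05 and 5.28 in the null group and between 5.20 and 5.73 in the wild-type group, and its part in the Ackr2 difference was not tested.

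Ccr7 guides dendritic cells and T cells to lymph nodes. Probe set 17268972 read 5.45, 5.04 and 5.25 on the null arrays and 5.64, 5.29 and 5.40 on the wild-type arrays, near the array median in both. The groups overlapped, with a difference of -0.20 (SE 0.15, interval -0.55 to 0.15, limma adjusted p = 0.689). Among dendritic cell markers Fscn1, also made by many cultured cells, had a mean of 9.97 and Batf3 4.14. Cd209a was nearly as bright as Fscn1, with a mean of 9.90. Of the 9 measured, 5 differences were positive and 4 negative. Only Zbtb46 (0.29, SE 0.11, limma adjusted p = 0.441) was without overlap, higher in the null group, against 10.1% of all genes in that direction. The list mean lay between 6.11 and 6.31 in the null group and between 6.13 and 6.27 in the wild-type group. Lymphocyte markers, from Nkg7 at 5.80 to Cd3g at 4.08, had list means of 4.61 to 4.68 and of 4.72 to 4.79, so these groups did not overlap.

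Cxcr2 is the neutrophil receptor for Cxcl1, Cxcl2, Cxcl5 and related chemokines. Probe set 17214142 read 4.95, 5.14 and 5.05 on the null arrays and 5.10, 5.49 and 5.18 on the wild-type arrays, just below the array median apart from the second wild-type array. Its difference was -0.21 (SE 0.14, interval -0.53 to 0.10, limma adjusted p = 0.628). Neutrophil markers were dim, with a mean of 10 genes between 4.18 and 4.37 on all arrays, from Csf3r at 5.45 to Retnlg at 3.08. Of the 10, 0 had an unadjusted limma p under 0.05 (10.6% of all genes). The Cxcr2 ligand Cxcl1 was brighter in the null group (7.52, 6.78 and 7.57 against 6.76, 6.16 and 6.03), without overlap, at 0.98 (SE 0.26, limma adjusted p = 0.325). Cxcl5 read 9.34 on the first wild-type array, 5.88 and 5.60 on the other wild-type arrays and 7.28 to 7.70 on the null arrays.

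**Figure D2:**
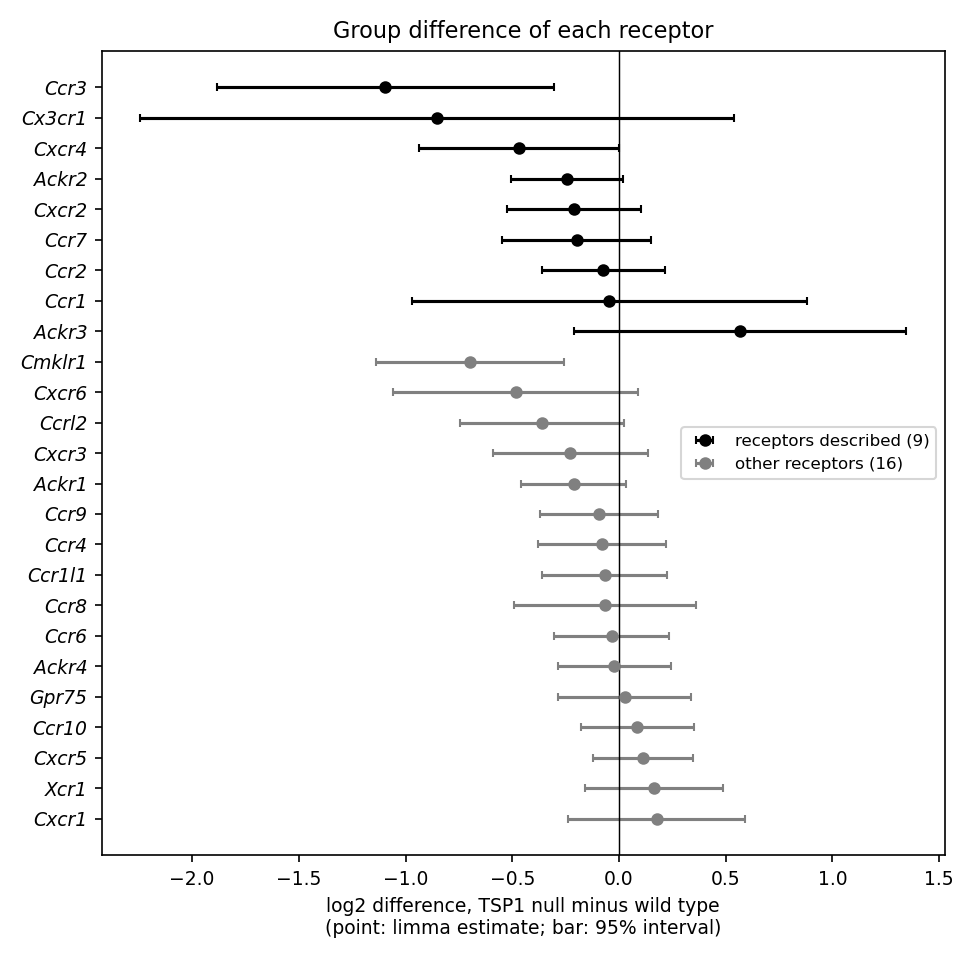
Fitted log2 difference (x axis, TSP1 null minus wild type; points are limma estimates and bars 95% intervals) for the 9 receptors described (black) and 16 other receptors (grey), 3 arrays a group. Among the 9, the interval of Ccr3 alone lies wholly below 0, and Cx3cr1 and Ccr1 have the widest intervals.

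The list of other receptors for chemokines and related ligands had 16 measured genes, 11 with negative and 5 with positive differences. Their median was -0.07, while that of all genes was 0.022, with 44.9% of all genes below 0. Adjusted over all genes 0 passed. Cmklr1, the receptor for the attractant chemerin, was the only one at an unadjusted limma p under 0.05, against 10.6% of all genes. It read 4.97, 5.12 and 4.44 on the null arrays and 5.68, 5.58 and 5.37 on the wild-type arrays. Cmklr1 differed by -0.70 (SE 0.19, limma adjusted p = 0.329). Groups did not overlap for Cmklr1 and Ackr1, lower in the null group, and Cxcr5, higher, against 15.8% of all genes in either direction. Cxcr6 had -0.48 (SE 0.25), Ccrl2, an atypical chemerin-binding receptor, -0.36 (SE 0.17), Cxcr3 -0.23 (SE 0.16) and Ackr1 -0.21 (SE 0.11). The remaining Ccr4, Ccr6, Ccr8, Ccr9, Ccr10, Ccr1l1, Cxcr1, Cxcr5, Xcr1, Ackr4 and Gpr75 ran from -0.10 to 0.18. Gpr75 had the brightest probe set of these, with a mean of 6.35, and Ccr1l1 the dimmest, with 3.36.

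Ligands had differences of both signs. Of 23 measured chemokine ligands 0 passed over all genes, 3 had an unadjusted limma p under 0.05 with higher and 2 with lower signals in the null group (6.28% and 4.27% of all genes), and the median difference was -0.09 (0.022 over all genes). Cxcl1, Ccl7 (a Ccr2 ligand, 0.42, SE 0.14) and Cx3cl1 (0.62, SE 0.24) were the higher ones. Ccl3, which Ccr1 binds, read 9.33, 10.37 and 7.47 on the null arrays and 10.52, 10.93 and 11.36 on the wild-type arrays, a difference of -1.88 (SE 0.65, limma adjusted p = 0.394). Ccl9, another Ccr1 ligand, had -0.86 (SE 0.31). Both were lowest on the third null array, the array lowest in macrophage markers. Ccl4 (-0.81, SE 0.45) and Ccl6 (-1.13, SE 0.54) were lowest there too, and Ccl12, at 5.52 there, was at least 6.70 elsewhere. Ccl5 stayed between 6.11 and 6.33, and Mif, a cytokine that also binds Cxcr4, between 11.17 and 11.82.

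**Figure D3:**
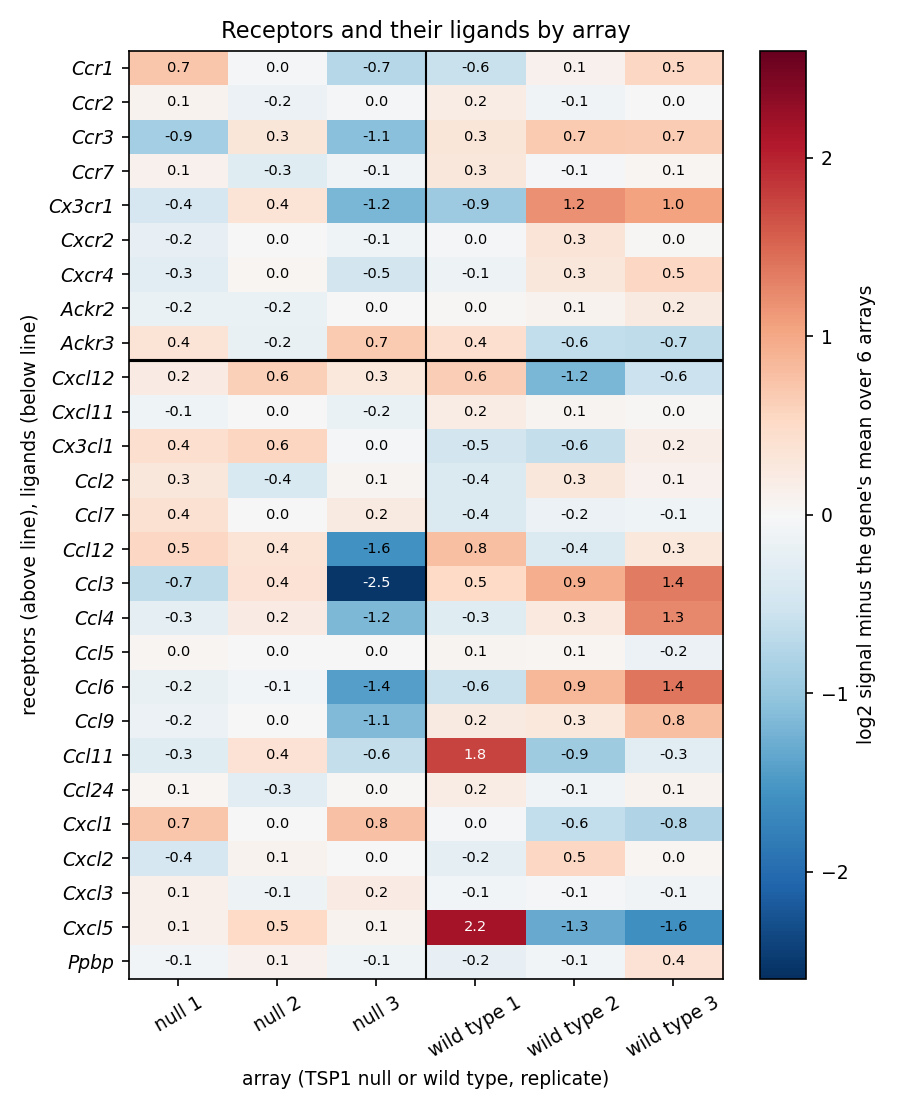
Log2 signal minus each gene's mean over the 6 arrays (colour and printed value) for the 9 receptors above the horizontal line and 18 ligands below it, with the 3 TSP1 null arrays left and the 3 wild-type arrays right of the vertical line. Ackr3 and Cxcl12 are low on the second and the third wild-type arrays, where Cx3cr1, Ccr3 and Cxcr4 are high, and Ccl3 is lowest on the third null array.

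Genes of receptor signalling were taken from a list of G protein subunits, arrestins, receptor kinases, RGS proteins and leukocyte effectors. Of 21 measured 0 passed over all genes, 7 had an unadjusted limma p under 0.05 with lower and 2 with higher signals in the null group (4.27% and 6.28% of all genes), and the median difference was -0.37 (0.022 over all genes). Those that were lower were Arrb2, Dock2, Elmo1, Pik3cg, Pik3r5, Rac2 and Rgs2. Each was lowest on the third null array, the array lowest in macrophage markers, and groups overlapped for Dock2, Elmo1 and Pik3cg. The part of macrophage content in these differences was not tested. Rgs2 and Pik3r5, a regulatory subunit of the phosphoinositide kinase downstream of these receptors, had -1.35 (SE 0.36) and -1.12 (SE 0.33). Dock2 and Rac2, which drive leukocyte movement, had -1.42 (SE 0.59) and -1.39 (SE 0.53). The higher ones were Rgs16, which shortens G protein signals, at 10.77, 10.88 and 10.88 against 10.25, 10.23 and 10.15 (0.64, SE 0.10, limma adjusted p = 0.194), and the receptor kinase Grk5 (0.48, SE 0.14). The inhibitory G protein subunits Gnai2 and Gnai3 were bright and differed by 0.04 (SE 0.15) and 0.02 (SE 0.10).

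Macrophage marker signal varied alongside that of several receptors. The mean of the 20 markers was 9.10, 9.78 and 7.42 on the null arrays and 9.64, 10.28 and 10.44 on the wild-type arrays. Of these markers, all 20 had negative differences (44.9% of all genes), 12 of them at an unadjusted limma p under 0.05 (4.27% of all genes in that direction). Over the 6 arrays this mean had a Pearson r of 0.91 with Ccr3 (exact permutation p = 0.00556), 0.89 with Cxcr4 (exact permutation p = 0.00833) and -0.84 with Ackr3 (exact permutation p = 0.00556), each with an adjusted p of 0.05 over 18 relations, at and not under the threshold. With Cx3cr1 it was 0.81 (exact permutation p = 0.0181, adjusted p = 0.0813). Spearman's rho was 0.89 for Ccr3 (exact permutation p = 0.0333, adjusted p = 0.12), 1 for Cxcr4 (exact permutation p = 0.00278, adjusted p = 0.05), -0.94 for Ackr3 (exact permutation p = 0.0167, adjusted p = 0.12) and 0.89 for Cx3cr1 (exact permutation p = 0.0333, adjusted p = 0.12). Left without the third null and the third wild-type array, those farthest from the median, r was 0.94 for Ccr3, 0.97 for Cxcr4, -0.85 for Ackr3 and 0.77 for Cx3cr1. On deviations from the group means it was 0.82, 0.80, -0.76 and 0.76 in the same order, while 3 arrays a group are too few for a value within each. Cxcr2 had the same rho of 0.89 (exact permutation p = 0.0333, adjusted p = 0.12) but an r of 0.57 (exact permutation p = 0.239, adjusted p = 0.622), which was 0.96 without the 2 farthest arrays and 0.26 on deviations from the group means.

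Ccr1 and Ccr2 had an r with the macrophage mean of 0.55 (exact permutation p = 0.269, adjusted p = 0.622) and -0.05 (exact permutation p = 0.911, adjusted p = 0.965). For Ccr1 it was -0.42 without the 2 farthest arrays, so its relation rests on those arrays. The first wild-type array stood apart for Cx3cr1, at 6.63 with a macrophage mean of 9.64, while the second null array read 7.92 at a mean of 9.78. The mean of the fibroblast markers, whose members went both ways, had an r of 0.50 with Ackr3 (exact permutation p = 0.319, adjusted p = 0.639). None of the 9 receptors had an unadjusted exact permutation p under 0.05 with that mean.

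**Figure D4:**
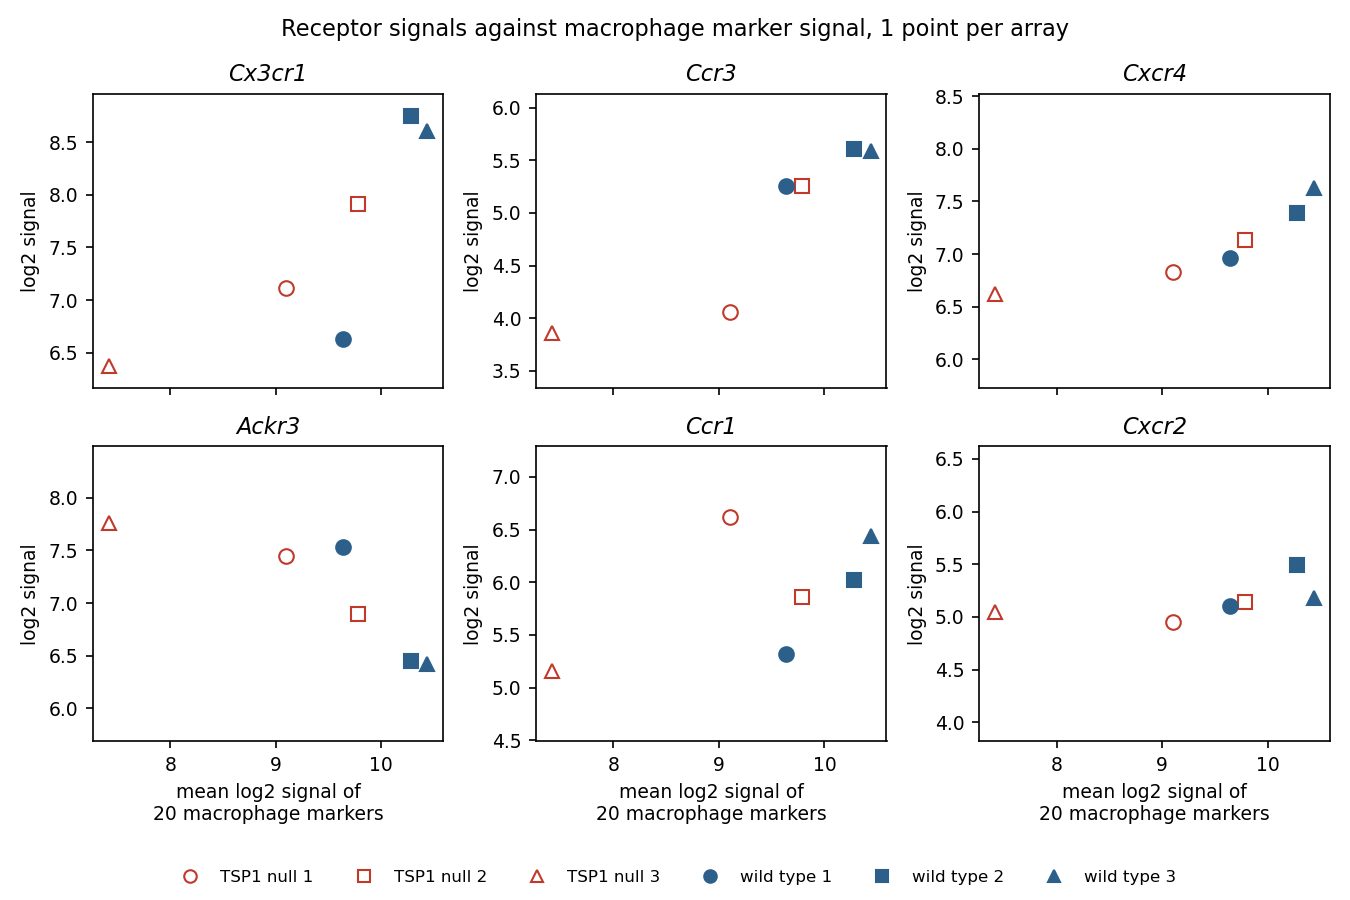
Log2 signal of 6 receptors (y axes, all spanning the same number of units) against the mean log2 signal of 20 macrophage markers (x axis), 1 point per array, with open red symbols for TSP1 null and filled blue symbols for wild type. Ccr3 and Cxcr4 rise along the axis, Ackr3 descends, and for Cx3cr1 the first wild-type array (6.63) lies below the run of the other arrays.

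With the macrophage mean as a covariate in the limma fit, the differences shrank for Ccr3 to -0.42 (SE 0.30) and for Cxcr4 to -0.11 (SE 0.21). They turned for Cx3cr1 to 0.28 (SE 0.55), for Ackr3 to -0.05 (SE 0.33) and for Ccr1 to 0.63 (SE 0.41). Ackr2 had -0.31 (SE 0.16) and Ccr7 -0.31 (SE 0.21), no smaller than without it. In this fit 0 receptors had an unadjusted limma p under 0.05, against 5.93% of all genes. How far macrophage content accounts for any receptor's difference was not tested beyond this fit, and the marker mean itself differs between the groups.

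The pattern of Cx3cr1, the brightest of the 9 and the one of widest range, was compared with all named genes over the 6 arrays. Colec11, a collectin, had the highest Pearson r (0.998), followed by Mob3b (0.995), Stk10 (0.994), Cdk18 (0.994) and Map11 (0.991), and 126 genes had an r over 0.95. Stk10, a kinase of lymphocytes and other cells, read 8.31, 8.71 and 8.09 on the null arrays and 8.23, 9.09 and 9.04 on the wild-type arrays. With 6 points and this many genes high values are common, and they are given as a description.

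By gene order in RefSeq, chromosome 9 holds 5 of the 9 receptors, chromosome 1 holds 3 and chromosome 11 holds 1. Ccr1, Ccr1l1, Ccr3 and Ccr2 follow one another on chromosome 9 among the genes tested. Neighbouring receptors had unequal fitted differences: Ccr3 differed by -1.09 between Ccr1l1 (-0.07) and Ccr2 (-0.07), and Cx3cr1 by -0.85 beside Ccr8 (-0.07). These neighbours were dim, with means over all arrays of 3.36 for Ccr1l1, 3.55 for Ccr2 and 3.73 for Ccr8. At such signals a change may not have been detectable, so these values do not show that the neighbours were unchanged.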

How the data were processed

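Total RNA (150 ng) from each of 6 samples of cultured cells was labelled with biotin and hybridised to 1 array, per the labels' protocols. The authors deposited 41345 log2 signals for each array. Partek and RMA are named per the submitters' processing notes, while versions, settings and the build were not given in the sources used here. That the scale is log2 follows from the range of values, 1.83 to 14.23. Raw scanner files were not used here. In the platform annotation 23521 probe sets had 1 symbol, 1814 had several and 16010 had none. The brightest probe set was kept for the 1082 genes with more than 1, leaving 22180 genes, without an intensity filter.

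Groups and replicate numbers came from sample titles. Differences (null minus wild type) were fitted with limma 3.58.1 in R 4.3.3 (lmFit, eBayes, two-sided, no covariates) on all 6 arrays, and p-values were adjusted by Benjamini-Hochberg over the 22180 genes (threshold 0.05). The SE printed is that of limma. Exact permutation tests used 20 divisions for group differences and 720 pairings for correlations. The limma fit was tried on simulated data with independent noise for each gene and shifts larger than any receptor difference. That trial does not cover smaller shifts or variation that genes share on an array. Array number limits the precision. Python 3.11.15 and matplotlib 3.10.9 drew the figures. Promoters came from RefSeq (GRCm38.p6), and the RefSeq gene table gave gene order only.

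The members and lists were chosen with earlier results of these data known. Named genes were the 9 receptors, all measured other receptors, ligands of the receptors, the ligands and signalling genes of smallest p or highest signal, the brightest and dimmest markers of cell type lists, and the 5 genes most like the brightest and the widest-ranging receptor. Cx3cr1 was both. Lyve1, Prox1, Flt4, Krt14, Krt17, Oxtr, Cd209a, Zbtb46, Col1a2, Dpep1, Lum, Epx, Prg2 and Siglecf were named after their values were seen. So were the signalling genes at an unadjusted p under 0.05, Ccl4, Ccl6 and Mif. Alternatives were quantile normalization, median centring, a filter on dim genes, averaged probe sets, every probe set, trend with robust prior, array weights, a replicate block, an ordinary linear model, the macrophage mean as covariate, and leaving out arrays.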

Additional observations from a re-analysis of the deposited data

How the results depend on the processing

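No receptor passed the limma threshold with all 6 arrays under any alternative. Ccr3, Cxcr4, Cxcr2 and Ackr2 kept their direction in all alternatives that gave a value. Direction turned for Ccr1 with the macrophage mean as covariate (0.63) and when single arrays were left out (-0.41 to 0.31), for Cx3cr1 (0.28) and Ackr3 (-0.046) with the covariate, and for Ccr2 without the first wild-type array (-0.14 to 0.0021 over the fits that leave out 1 array).

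Of the 41345 deposited probe sets, 2 passed when every one was tested. Of all genes, 0 to 34 passed when 1 array was left out. Receptors at an unadjusted p under 0.05 numbered 5 with array weights (14.5% of all genes there) and 0 with the covariate (5.93%). They numbered 0 among the 6 receptors above the median signal (13.4% of the genes there), of which Ccr3 is not one. With 1 array left out they numbered 0 to 4 (6.7% to 12.3% of all genes). Groups did not overlap for 0 receptors after quantile normalization (16.5% of all genes), 0 after median centring (17.4%) and 1 among receptors above the median signal (19.3%). With 1 array left out this held for 2 to 6 receptors (23% to 30.5% of all genes). The median difference ran from -0.30 to -0.21 with 1 array left out. The scalings shifted the median of all genes by 0.011 and 0.038.

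Leaving out null array 2 together with wild-type array 1 was chosen after the data were seen, and in Ccr3, Cx3cr1 and Ackr3 these are the arrays of each group nearest the other group. There 365 genes passed, with Ccr3 at -1.64 (limma adjusted p = 0.0126), Cx3cr1 at -1.92 (adjusted p = 0.0289) and Ackr3 at 1.17 (adjusted p = 0.0306). Of the receptors 4 had an unadjusted p under 0.05, against 15.8% of all genes, and 6 did not overlap, against 46.7%. The median was -0.34, and Ccr2 (0.062) and Ccr7 (0.0037) turned.

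Deviations from the group means had an r of -0.14, 0.18 and -0.16 between same-numbered arrays, and of -0.18 to 0.26 between the others. With 3 arrays a group this cannot decide whether the replicate numbers pair the samples. With the replicate block 1 receptor had an unadjusted p under 0.05 (9.99% of all genes), Ccr3, at a limma adjusted p of 0.380, and 0 genes passed. Dim receptors, Ccr2 above all, limit what could be detected.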
